A study of Mus musculus with 30 samples.

Results

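Neuropeptide precursor transcripts were described in autonomic preganglionic neurons and in somatic motoneurons of the mouse spinal cord. The genes were chosen by name from a list of 10 precursors (Adcyap1, Penk, Tac1, Sst, Nts, Cck, Npy, Gal, Vip and Pdyn), drawn up with earlier results of these data known. Every probe set that the array annotation gave to 1 of these genes was taken. On that basis 9 of the 10 genes were measured, by 13 of the 12422 probe sets tested, among 8251 genes in all. Nts, the neurotensin precursor, had no probe set with its symbol and was dropped. The brightest probe set stood for each gene: 92200_at for Adcyap1, 94516_f_at for Penk, 102726_at for Tac1, 95436_at for Sst, 96055_at for Cck, 103235_at for Npy, 100407_at for Gal, 100393_at for Vip and 161987_at for Pdyn. Levels are log2 intensities, and they compare pools of 1 probe set, not genes. The tissue was spinal cord of 5 adult mice, and all of them were sham-operated controls with no other treatment or genotype named. Laser capture gave 3 pools of cells from each mouse: motoneurons of the intermediolateral column (IML), which is the column of the preganglionic neurons, lateral motoneurons (LMN) and medial motoneurons (MMN), the last 2 being somatic. A pool was 400 captures, so each sample was a bulk sample, and in it fewer cells of a type and less RNA per cell cannot be told apart. The RNA of each pool was split and amplified for 2 arrays, which gave 30 arrays and 15 samples with n = 5 animals per pool.

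Neuropeptides are made as larger precursor proteins, sorted into dense core vesicles, cut by prohormone convertases and released beside the classical transmitter, where they act on G protein-coupled receptors. Preganglionic neurons are cholinergic cells that drive the autonomic ganglia and the adrenal medulla, and subsets of them contain peptides. Adcyap1 encodes the peptide PACAP, a co-transmitter at the synapse onto chromaffin cells. Penk encodes the enkephalins, Tac1 encodes substance P and neurokinin A, and Sst encodes somatostatin. Penk, Tac1, Sst and Npy are also expressed by interneurons of the spinal cord, and Pdyn, Cck and Gal are known from dorsal horn or sensory neurons.

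Sequences before the transcription starts of Adcyap1, Tac1 and Sst, whose differences between pools are given in the paragraphs after them, are shown because each holds letters of the cyclic AMP response element (CRE), known from the Sst promoter. Capitals mark the CRE, TGACGTCA, or its half-site, TGACG or CGTCA. The sequences are from RefSeq on the GRCm38.p6 build, 250 bases up to the base before the start, written 5′ to 3′ on the strand of the gene. Adcyap1 lies at chr17:93198767-93199016 on the plus strand, Tac1 at chr6:7554811-7555060 on the plus strand and Sst at chr16:23890845-23891094 on the minus strand.
Adcyap1: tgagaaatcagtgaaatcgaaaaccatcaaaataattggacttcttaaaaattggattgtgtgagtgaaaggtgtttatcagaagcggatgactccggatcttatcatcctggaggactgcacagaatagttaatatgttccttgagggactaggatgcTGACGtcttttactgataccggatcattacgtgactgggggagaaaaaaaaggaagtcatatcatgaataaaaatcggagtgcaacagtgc
Tac1: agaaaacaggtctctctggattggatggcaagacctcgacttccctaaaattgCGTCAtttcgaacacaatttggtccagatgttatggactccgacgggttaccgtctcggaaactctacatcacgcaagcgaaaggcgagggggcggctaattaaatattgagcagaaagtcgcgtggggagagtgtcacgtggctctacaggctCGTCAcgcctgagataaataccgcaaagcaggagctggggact
Sst: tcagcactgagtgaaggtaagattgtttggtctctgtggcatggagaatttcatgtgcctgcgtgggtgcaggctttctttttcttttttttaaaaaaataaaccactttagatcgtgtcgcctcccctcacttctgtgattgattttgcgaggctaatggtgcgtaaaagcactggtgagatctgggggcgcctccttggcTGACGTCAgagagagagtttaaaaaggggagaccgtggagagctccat
The whole CRE was in Sst alone among the 9 listed genes with a promoter in the table, at base -48 counted from the start, and 1.55% of 32851 windows of the same length held it on either strand. The half-site, which the whole element also contains, was at -91 in Adcyap1 and at -197 and -43 in Tac1. It was also in Cck at -47, in Vip at -79 and in Nts at -166, so 6 of the 9 genes held it, against 17.77% of all windows. Adcyap1 has another annotated start, before which the same element lies at -242. The AP-1 letters TGANTCA, searched on both strands, were in Nts at -207 and in 6.75% of all windows. Npy, Gal and Pdyn held none of these letters in the window, and Penk was not in the table.

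PACAP, enkephalin, tachykinin and galanin precursors were higher in IML than the mean of the somatic pools. In IML against the mean of LMN and MMN, 4 of 9 genes were called higher (Adcyap1, Penk, Tac1 and Gal), 0 lower and 5 were not called, where called means an adjusted p under 0.05 by limma over all probe sets. Of all probe sets, 3.44% were called higher in that comparison and 2.09% lower. Because the list was drawn up with earlier results of these data known, its counts beside such shares describe the genes and are no independent test. Unadjusted, 6 genes were higher and 1 was lower at a p under 0.05, which 2574 of the 12422 probe sets passed in either direction. The median difference of the 9 genes was 0.30, against -0.0076 over all probe sets (log2). The count was 1 (Penk) without the animal as a block, and 2 (Adcyap1 and Penk) without animal 1, 3, 4 or 5. It was also 2 without the IML sample of animal 1, an alternative chosen after seeing the data.

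**Figure D1:**
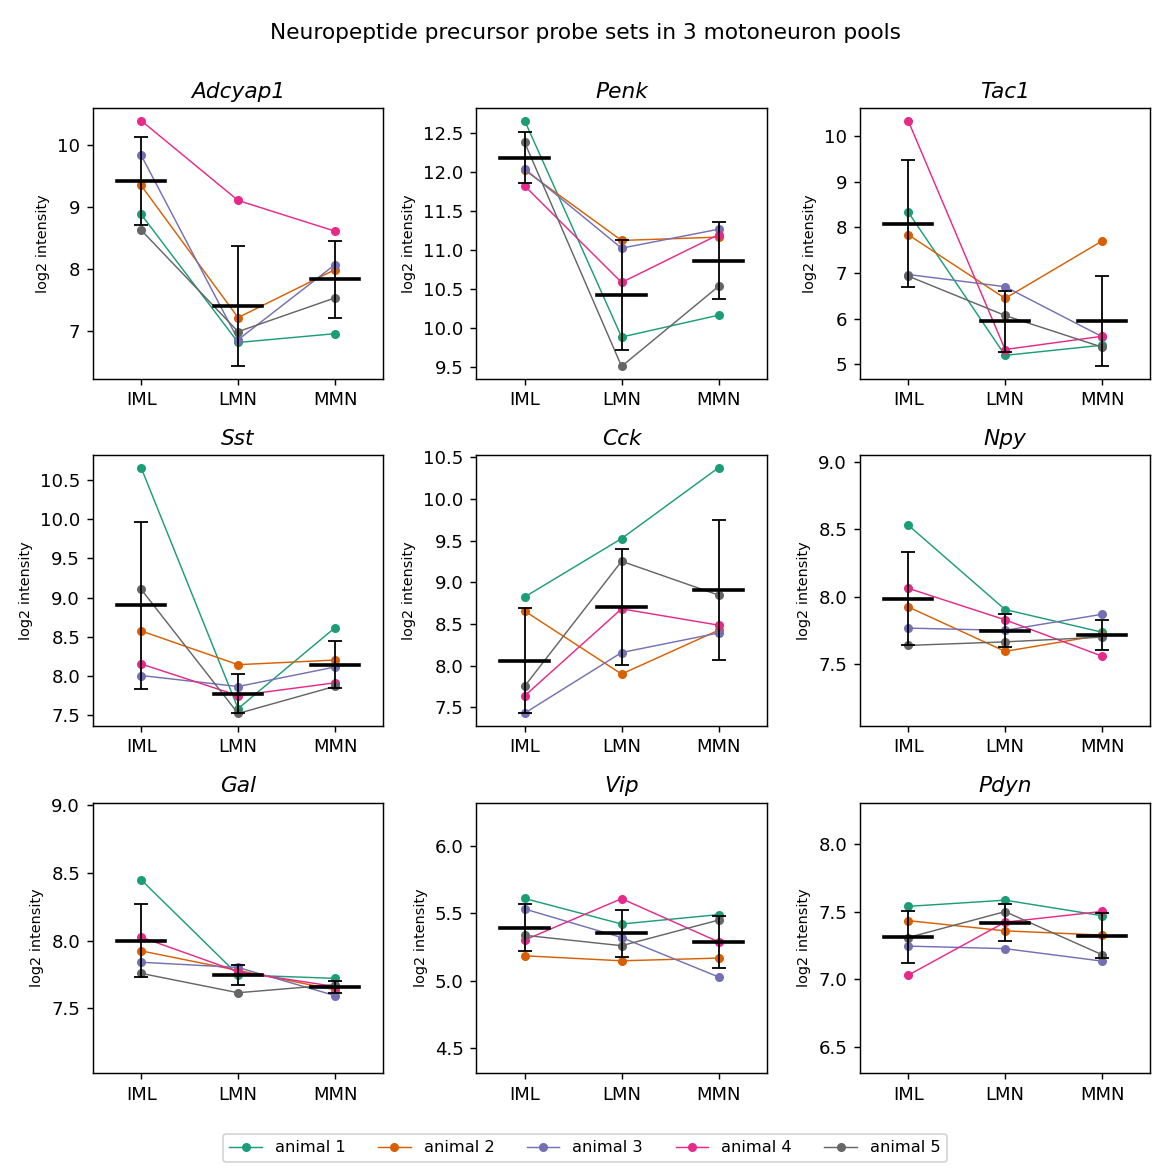
Log2 intensity of the brightest probe set of each of the 9 genes in IML, LMN and MMN, with 1 coloured line per animal and black bars for the mean ± SD over 5 animals. All 5 Penk values in IML lie above every LMN and MMN value, and the other panels overlap in part; the scale differs between panels, so heights cannot be compared across genes.

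Adcyap1, the PACAP precursor, had log2 intensities of 8.88, 9.35, 9.84, 10.40 and 8.63 in IML of animals 1 to 5. In LMN the values were 6.81, 7.21, 6.85, 9.11 and 6.98, and in MMN 6.95, 7.99, 8.07, 8.61 and 7.53. Within every animal IML was the highest pool, while across animals 3 of 5 IML values exceeded all somatic values. Animal 4 was the highest in each of the 3 pools. The difference was 1.81 ± 0.19 (log2, SE, n = 5), or 3.50-fold, with an adjusted p of 0.000901 by limma. By animal it ran from 1.37 to 2.38. The call was lost without the animal as a block (adjusted p = 0.0518).

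Penk, the enkephalin precursor, was the 1 gene of the 9 whose IML and somatic values did not overlap. Its brightest probe set read 12.65, 12.02, 12.04, 11.82 and 12.37 in IML of animals 1 to 5, against 9.88, 11.12, 11.02, 10.58 and 9.51 in LMN and 10.16, 11.16, 11.26, 11.19 and 10.53 in MMN. The lowest IML value lay above the highest somatic value, and the spread between animals was smaller in IML (SD 0.33) than in LMN (0.71) or MMN (0.49). The difference was 1.54 ± 0.25, or 2.90-fold, with an adjusted p of 0.00831. It was 2.63 and 2.35 in animals 1 and 5 and between 0.88 and 0.93 in the other animals, and it passed without each animal in turn. A second probe set of Penk (94517_r_at) differed by 0.67 ± 0.09 (adjusted p = 0.00377), with IML higher in 5 of 5 animals. The third (161164_r_at), which averaged 3.36 in IML, 3.26 in LMN and 3.30 in MMN, differed by 0.08 ± 0.06 (adjusted p = 0.534). Averaged over the 3 probe sets, the Penk difference was 0.76 ± 0.13 and was called. The _f_at suffix marks a probe set that can match a family of related sequences, and _r_at one for which some rules of probe selection were dropped.

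Tac1, the precursor of substance P and neurokinin A, had the widest spread between animals in IML among the 9 genes. It read 8.34, 7.84, 6.97, 10.34 and 6.93 in IML of animals 1 to 5, against 5.20, 6.44, 6.70, 5.32 and 6.07 in LMN and 5.42, 7.70, 5.61, 5.61 and 5.38 in MMN. The SD was 1.40 in IML, 0.67 in LMN and 0.99 in MMN, and 3 of 5 IML values were above all somatic values. Animal 4 had the highest IML value, at intensities of 1122 and 1501 on its 2 arrays. The difference was 2.14 ± 0.52, or 4.41-fold (adjusted p = 0.0397). Its arrays read intensities from 33.9 to 106 in LMN and from 37.2 to 218 in MMN, and without detection calls it is unknown whether these somatic signals were above background, so the size of the fold is uncertain. With an offset of 32 before the log the difference was 1.70 ± 0.47 and was not called (adjusted p = 0.0724). A floor of 32 lies below every Tac1 reading and left the difference at 2.14, while its SE rose to 0.60 (adjusted p = 0.102). That lost call therefore does not bear on the low Tac1 signals. By animal it was 4.87 in animal 4, 3.03 in animal 1, 1.21 in animal 5 and under 1 in animals 2 and 3. Tac1 was called in 1 of the 5 fits that left out an animal, the one without animal 2 (adjusted p = 0.0386). Without animals 1, 3, 4 and 5 the adjusted p was 0.129, 0.0761, 0.0890 and 0.0952.

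Gal, the galanin precursor, showed a small difference. The values were 8.45, 7.92, 7.84, 8.03 and 7.76 in IML of animals 1 to 5, 7.75, 7.78, 7.80, 7.77 and 7.61 in LMN, and 7.72, 7.64, 7.59, 7.66 and 7.67 in MMN. All IML values but that of animal 5 were above every somatic value. The difference was 0.30 ± 0.08, or 1.23-fold (adjusted p = 0.0472), with IML higher in 5 of 5 animals. It was 0.72 in animal 1 and at most 0.31 in the others, and without animal 1 it was 0.20 (adjusted p = 0.0937). None of the 5 fits that left out an animal called Gal, nor did either rescaling of the arrays. Its dimmer probe set (161591_r_at) differed by 0.16 ± 0.07 (adjusted p = 0.209).

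Sst and Cck had differences of opposite sign that missed the threshold. Sst, the somatostatin precursor, read 10.66, 8.58, 8.01, 8.15 and 9.11 in IML of animals 1 to 5, against 7.58, 8.14, 7.87, 7.75 and 7.52 in LMN and 8.62, 8.20, 8.12, 7.91 and 7.87 in MMN. Only animals 1 and 5 had IML values above the somatic range. The difference was 0.94 ± 0.30 (adjusted p = 0.0897), and it was 0.54 ± 0.18 without animal 1 (adjusted p = 0.140). The intensities of Sst in IML of animal 1 were 1529 and 1707 on the 2 arrays.

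Cck, the cholecystokinin precursor, had a lower mean in IML (8.06 ± 0.63) than in LMN (8.70 ± 0.69) and MMN (8.90 ± 0.84). It read 8.82, 8.66, 7.43, 7.64 and 7.75 in IML of animals 1 to 5, against 9.53, 7.90, 8.16, 8.68 and 9.25 in LMN and 10.38, 8.42, 8.39, 8.49 and 8.85 in MMN. IML was below the somatic mean in 4 of 5 animals, and animal 2 had the opposite order. The difference was -0.74 ± 0.23 (adjusted p = 0.0831). Without animal 2, the 1 animal of the opposite order, it was -1.05 ± 0.16 and was called by limma (adjusted p = 0.00819). That was the 1 call of Cck in the 5 fits that left out an animal, where the adjusted p reached 0.258. Without the LMN sample of animal 2 alone, an alternative chosen after seeing the data, it was -0.85 ± 0.20 (adjusted p = 0.0469).

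Npy, Vip and Pdyn were not called in any comparison. Npy, the neuropeptide Y precursor, ranged from 7.64 to 8.53 in IML (median 7.93), from 7.60 to 7.91 in LMN and from 7.56 to 7.87 in MMN, with a difference of 0.25 ± 0.10 (adjusted p = 0.171). Vip, the precursor of vasoactive intestinal peptide, averaged 5.39 ± 0.17 in IML, 5.35 ± 0.17 in LMN and 5.28 ± 0.19 in MMN (SD, n = 5). Pdyn, the dynorphin precursor, averaged 7.31 ± 0.19 in IML, 7.42 ± 0.14 in LMN and 7.32 ± 0.17 in MMN, and its 95% interval for the difference ran from -0.22 to 0.10. Its second probe set (99840_at) differed by 0.06 ± 0.10. No detection calls were used, so it is unknown for these probe sets, as for Tac1 in the somatic pools, whether they were above background. A small difference of Vip or Pdyn therefore does not show equal levels.

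The comparisons with each somatic pool used the same IML samples and are set side by side. Against LMN, 2 of 9 genes were called higher (Adcyap1 and Penk) and 0 lower, where 5.46% of all probe sets were called higher and 3.53% lower. At an unadjusted p under 0.05, which 2923 of the 12422 probe sets passed in either direction, 5 were higher and 1 lower against LMN. Against MMN, Adcyap1 alone was called higher and 0 lower, where 0.233% of all probe sets were called higher and 0.113% lower. There 6 genes were higher and 1 was lower at an unadjusted p under 0.05, which 1533 of the 12422 probe sets passed in either direction.

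Adcyap1 differed by 2.03 ± 0.22 against LMN (adjusted p = 0.000731) and by 1.59 ± 0.22 against MMN (adjusted p = 0.0148). Against MMN it missed the threshold without the animal as a block (0.549) and without animals 1, 3, 4 or 5, where the adjusted p was 0.0705, 0.0507, 0.0583 and 0.0790. Penk differed by 1.76 ± 0.29 against LMN (adjusted p = 0.00538) and by 1.32 ± 0.29 against MMN (adjusted p = 0.103). The Tac1 difference was 2.14 ± 0.61 against either pool, with an adjusted p of 0.0507 for LMN and 0.201 for MMN. The Cck difference was -0.64 ± 0.26 against LMN (adjusted p = 0.164) and -0.85 ± 0.26 against MMN (adjusted p = 0.243).

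Between the somatic pools, limma called none of the 9 genes. None had an unadjusted p under 0.05, which 1447 of the 12422 probe sets passed. Among all probe sets, 0.0242% were called higher in LMN than in MMN and 0.0322% lower. LMN was below MMN in 4 of 5 animals for Adcyap1 (-0.44 ± 0.22, adjusted p = 0.468), in 5 of 5 for Penk (-0.44 ± 0.29, adjusted p = 0.604) and in 5 of 5 for Sst (-0.37 ± 0.34, adjusted p = 0.718). The 95% intervals ran from -0.91 to 0.04 for Adcyap1 and from -1.08 to 0.20 for Penk. The order of the means was thus IML, MMN and LMN for Adcyap1, Penk and Sst, with the last 2 pools not told apart by the test.

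**Figure D2:**
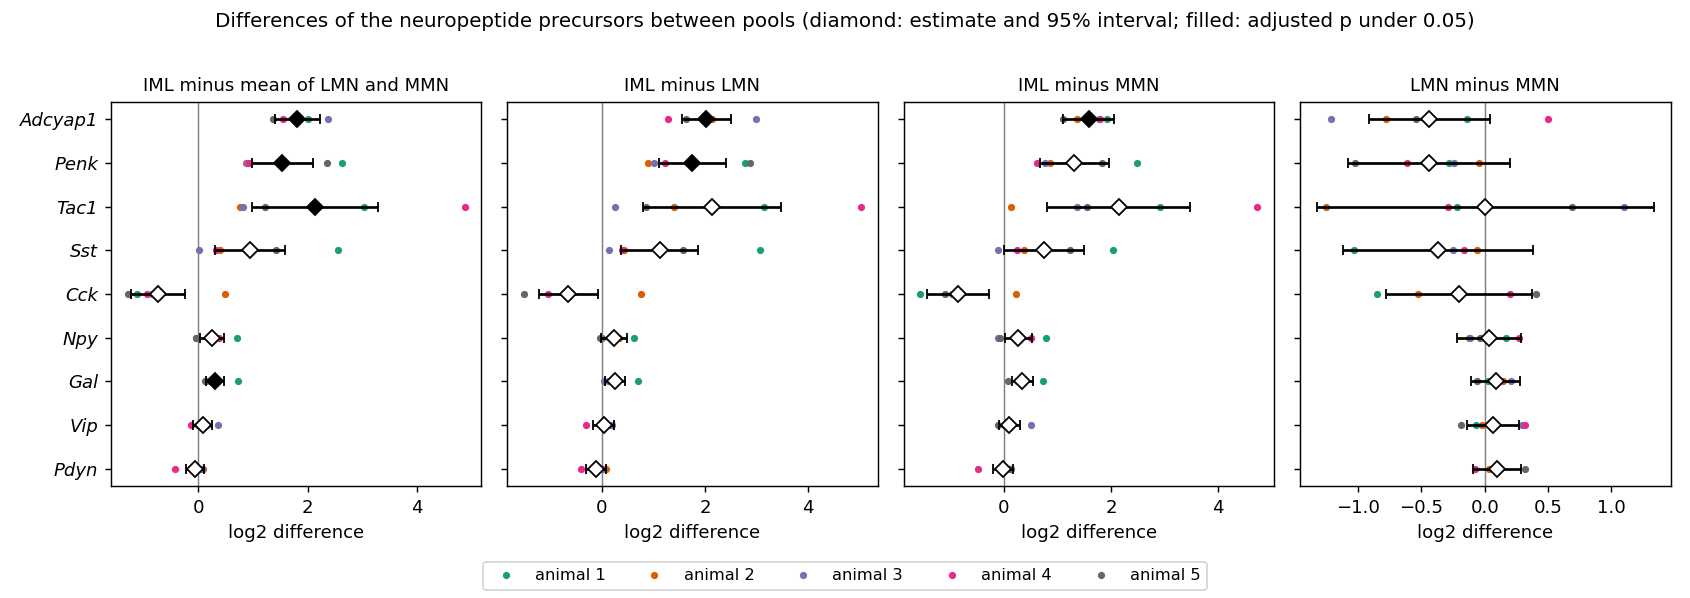
Log2 differences of the 9 genes for IML minus the mean of LMN and MMN, IML minus LMN, IML minus MMN and LMN minus MMN. Dots are the 5 animals, diamonds the limma estimates with 95% intervals, and filled diamonds have an adjusted p under 0.05; filled diamonds number 4, 2, 1 and 0 in the 4 panels.

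The paired arrays of each sample, which share their RNA, measured the technical spread. The IML difference on the first and the second set of arrays was 1.76 and 1.86 for Adcyap1, 1.54 and 1.54 for Penk and 2.08 and 2.19 for Tac1. For Sst the sets gave 1.02 and 0.86, and for Cck they gave -0.67 and -0.82. The SD between animals within a pool, on averages of 2 arrays, was set against the technical SD of a single array. It was 7.29 times that SD for Tac1 and between 3.85 and 4.19 times for Penk, Adcyap1, Cck and Sst. It was 1.98 times for Npy, 1.59 times for Gal, 1.10 times for Pdyn and 0.86 times for Vip. As averages are set against single arrays, a ratio under 1 does not show that animals varied no more than paired arrays. The Vip difference changed sign between the sets, at 0.18 and -0.03.

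**Figure D3:**
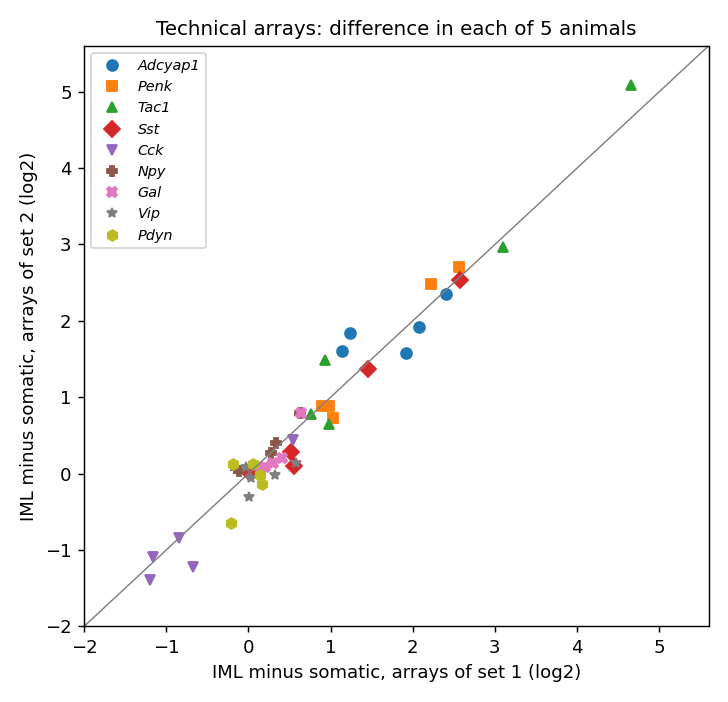
IML minus the mean of LMN and MMN (log2) on the first set of arrays (x axis) against the second set (y axis), with 1 point per animal for each of the 9 genes and a line of equality. The points of Tac1, Sst, Penk, Adcyap1 and Cck spread along the line, with Tac1 of animal 4 at the top right, and those of Vip and Pdyn scatter around 0. The animal 4 points of Adcyap1, Cck and Sst lie at least as far from the line as any point of Vip or Pdyn.

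The animals differed in which precursors were high. In IML, animal 1 had the highest value of 7 of the 9 genes, Penk and Sst among them, and animal 4 had the highest of Adcyap1 and Tac1. Animal 1 was also the highest in IML for the means of the other neuropeptide precursors, the receptors (6.89), the processing genes (9.37), the microglia markers (7.52) and the excitatory interneuron markers (5.90), all described further on. For the other precursors, the receptors and the excitatory markers it was highest in LMN and MMN too. In the remaining lists another animal was highest in IML. It was animal 2 for fibroblast, astrocyte, oligodendrocyte and inhibitory interneuron markers and animal 5 for endothelial markers. For cholinergic and visceral markers and degrading enzymes it was animal 4. The IML difference was positive for 8 of 9 genes in animal 1, 9 in animal 2, 7 in animal 3, 6 in animal 4 and 5 in animal 5. Penk and Sst had their largest differences in animals 1 and 5, while Adcyap1 had its largest in animal 3.

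Genes whose level followed a precursor most closely were ranked by Pearson's r over the 15 samples, as a description with no test. Each animal's mean was taken out first. Only 4899 or 4900 of the 8251 genes were ranked, those whose brightest probe set averaged at or above the median of all probe sets. The samples share animals and arrays, and the differences between pools enter r. For Adcyap1 the closest were D430019H16Rik (0.97), the neuronal calcium sensor gene Hpca (0.93) and Bex4 (0.93). For Penk they were Serbp1 (0.96), the thrombin receptor gene F2r (0.96) and Tm7sf3 (0.95), and for Tac1 the Wnt antagonist gene Frzb (0.92), the adhesion receptor gene Adgrg1 (0.91) and Socs2 (0.90).

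Of 20 other neuropeptide precursors, 1 was called higher in IML than in the somatic mean, 0 lower and 19 were not called, with a median of -0.03 and a mean of 0.05. That count is near the background of this comparison, 3.44% of all probe sets higher and 2.09% lower. The called gene was Nppb, the precursor of B-type natriuretic peptide, which averaged 6.47 ± 0.46 in IML, 5.86 ± 0.14 in LMN and 5.79 ± 0.11 in MMN and differed by 0.64 ± 0.13 (adjusted p = 0.0198). Pnoc, the nociceptin precursor (-0.31 ± 0.14), and Tac2, the neurokinin B precursor (0.43 ± 0.20), came next by p and were not called.

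Among 24 receptors of the peptides named above, 1 was called higher, 0 lower and 23 were not called, with a median of 0.0012, which is also near that background. Npy2r, a neuropeptide Y receptor known from presynaptic terminals, averaged 8.71 ± 0.58 in IML, 7.86 ± 0.16 in LMN and 7.88 ± 0.08 in MMN, a difference of 0.84 ± 0.16 (adjusted p = 0.0145). Npy1r (0.26 ± 0.09) and Vipr2, a receptor of VIP and PACAP (-0.13 ± 0.07), were not called.

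Genes that process and package the precursors included 2 called higher of 16, with 0 lower, 14 not called and a median of 0.04. Over all probe sets, 3.44% were called higher in this comparison and 2.09% lower. Scg2, the granin secretogranin II of dense core vesicles, averaged 9.73 ± 0.14 in IML, 9.19 ± 0.34 in LMN and 9.20 ± 0.20 in MMN, and its difference was 0.54 ± 0.09 (adjusted p = 0.00777). Pcsk1, a prohormone convertase that cuts precursors, was higher by 0.42 ± 0.10 (adjusted p = 0.0406). Pam, which amidates peptide C-termini, differed by 0.19 ± 0.05 and was not called (adjusted p = 0.0574). Against LMN alone, 3 of the 16 were called higher and 1 lower, where 5.46% of all probe sets were called higher and 3.53% lower.

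The label of IML was set against marker genes. Slc18a3, the vesicular acetylcholine transporter, averaged 7.18 ± 0.28 in IML, 8.73 ± 1.17 in LMN and 8.30 ± 1.01 in MMN, with a difference of -1.33 ± 0.36 that was not called (adjusted p = 0.0579). Against LMN alone it was called lower in IML (-1.55 ± 0.42, adjusted p = 0.0423). Against MMN alone it was not called (-1.11 ± 0.42, adjusted p = 0.31). Of 10 cholinergic and motoneuron markers, 1 was called higher (the choline transporter gene Slc44a1, 0.48 ± 0.10) and 3 lower, among them the neurofilament gene Nefh (-0.83 ± 0.09) and the receptor gene Ret (-0.34 ± 0.07). In that comparison 3.44% of all probe sets were called higher and 2.09% lower. Against LMN, 1 of the 10 was called higher and 6 lower, where 5.46% of all probe sets were called higher and 3.53% lower. The list mean differed by -0.42 from the somatic mean and was higher in IML in 0 of 5 animals. Of 4 visceral motoneuron markers none was called by limma. At an unadjusted p under 0.05, which 2574 of the 12422 probe sets passed, 2 of these markers were higher and 1 lower. Fgf1 (-0.67 ± 0.20), Gfra3 (0.33 ± 0.11) and Foxp1 (0.14 ± 0.06) had the smallest p of them. Nos1, the nitric oxide synthase of many preganglionic neurons, averaged 5.72 ± 0.11 in IML, 5.69 ± 0.16 in LMN and 5.73 ± 0.14 in MMN. Isl1, a motoneuron transcription factor, averaged 5.74 ± 0.27 in IML, 5.61 ± 0.20 in LMN and 5.59 ± 0.17 in MMN. Neither was called (differences of 0.01 ± 0.05 for Nos1 and 0.14 ± 0.09 for Isl1), so neither sets IML apart from the somatic pools here. As for every probe set, no detection calls were used.

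Markers of other cells that could lie near the captured neurons were also higher in IML than in the somatic mean in some lists. Of 14 meningeal and fibroblast markers 7 were called higher and 0 lower, with Igf2 (1.18 ± 0.21), Col1a1 (1.28 ± 0.23) and Col1a2 (1.30 ± 0.23) leading. Over all probe sets, 3.44% were called higher and 2.09% lower. The mean of this list ranged from 9.09 to 10.12 in IML, from 7.70 to 9.48 in LMN and from 8.23 to 10.28 in MMN. With that mean as a covariate limma called no probe set, while the standard errors rose 2.17 times at the median and 567 probe sets had an unadjusted p under 0.05. In that model Adcyap1 differed by 1.68 ± 0.41, Penk by 1.96 ± 0.54, Tac1 by 1.66 ± 1.14, Sst by 1.67 ± 0.60, Gal by 0.51 ± 0.15 and Cck by -0.20 ± 0.46.

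Microglia and macrophages had 14 markers measured, 7 called higher and 0 lower, with Csf1r (0.48 ± 0.07), Tyrobp (0.79 ± 0.13) and C1qc (0.33 ± 0.06) first by p. The shares over all probe sets were 3.44% higher and 2.09% lower. Their mean ranged from 7.02 to 7.52 in IML, from 6.79 to 6.89 in LMN and from 6.82 to 7.13 in MMN. Among 10 astrocyte markers Fabp7 (1.30 ± 0.27) was called and Gja1 and Gfap were not. Gsn (1.12 ± 0.21) was called among 10 oligodendrocyte markers, Sox10 and Mobp not. Vwf (1.30 ± 0.29) was called among 13 endothelial and mural markers, Cdh5 and Pecam1 not. The astrocyte, oligodendrocyte and endothelial lists thus each had 1 gene called higher and 0 lower, beside the same shares over all probe sets. The part of these cells in the differences of the precursors was not tested.

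Interneurons also express several of these peptides. Of 7 inhibitory interneuron markers none was called in IML against the somatic mean by limma, and their median was -0.04. At an unadjusted p under 0.05, which 2574 of the 12422 probe sets passed, 1 of these markers was higher and 1 lower. The list mean ranged from 8.22 to 8.41 in IML, from 7.78 to 8.41 in LMN and from 8.35 to 8.52 in MMN. Gad1, which makes GABA, averaged 9.26 ± 0.61 in IML, 8.31 ± 0.85 in LMN and 9.30 ± 0.70 in MMN, and it was called higher in IML than in LMN (0.95, adjusted p = 0.0190) but not against the somatic mean (0.45 ± 0.18, adjusted p = 0.181). Pvalb (-0.39 ± 0.16) and Gad2 (0.09 ± 0.06) were not called. Of 5 excitatory and dorsal horn interneuron markers, Ebf1 was called higher (0.20 ± 0.05, adjusted p = 0.0385), Lmx1b (-0.13 ± 0.04) and Tlx3 (0.08 ± 0.04) were not. Over all probe sets, 3.44% were called higher than the somatic mean and 2.09% lower. That list's mean ranged from 5.57 to 5.90 in IML, from 5.47 to 5.84 in LMN and from 5.52 to 5.84 in MMN. The part of interneurons in the differences was not tested.

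**Figure D4:**
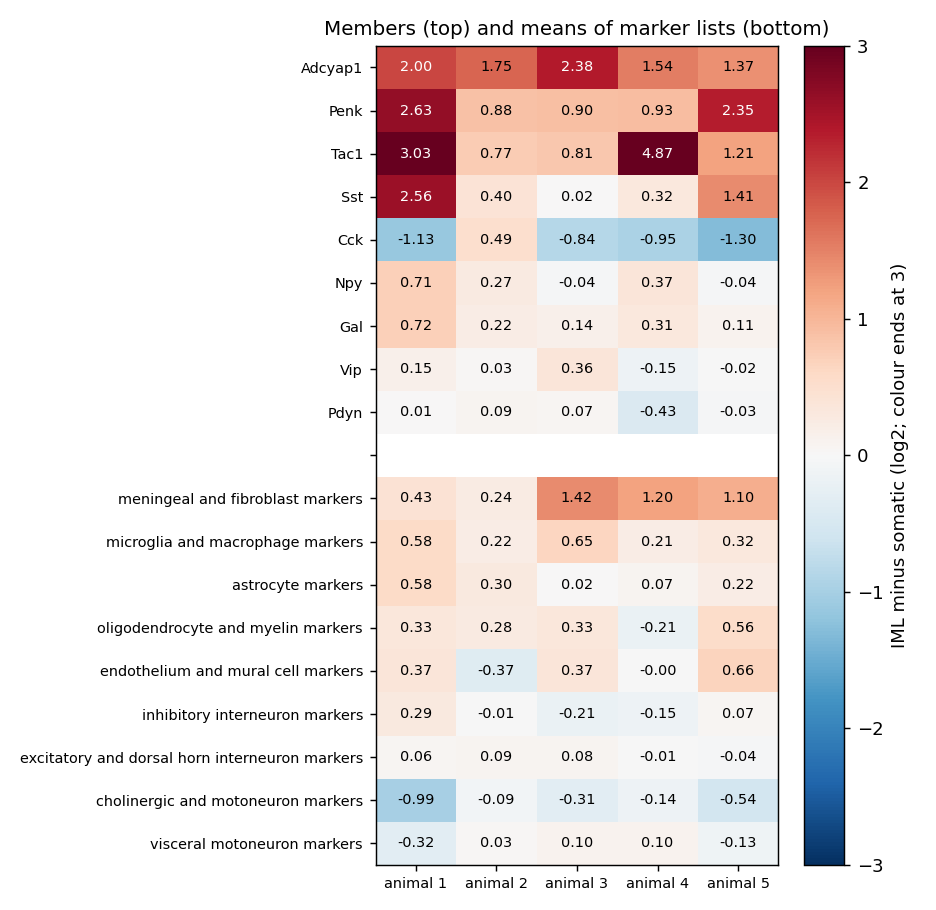
IML minus the mean of LMN and MMN (log2) in each of 5 animals for the 9 genes (top) and for the means of 9 marker lists (bottom); red is higher in IML, blue lower, and colours end at 3. The Tac1 difference was 4.87 in animal 4 and the Sst difference 2.56 in animal 1. In animal 1 the list means differed by 0.43 for fibroblast, 0.58 for astrocyte, 0.29 for inhibitory interneuron and -0.99 for cholinergic markers. In animal 4 these were 1.20, 0.07, -0.15 and -0.14. A link between lists and precursors was not tested.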

How the data were processed

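Transcripts were measured on Affymetrix mouse arrays in 3 pools of spinal motoneurons from each of 5 mice, with 2 arrays per sample. The deposited intensity values are linear. The authors, per the labels, amplified each target in a double protocol, normalized the signals with a tool named R-pack and gave inverse logs. How that tool works is not given in the sources used here, and no detection calls were used. Amplification from few cells adds spread and favours 3′ ends. Array medians ran from 131.7 to 145.9, and the number of animals (n = 5 per pool) limits the precision.

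Of 12488 probe sets, 66 controls were left out. Of the 12422 tested, the platform's annotation named 1 gene for 10833, several for 396 and none for 1193, and 10817 symbols were taken through the gene identifier. Values were log2-transformed without an offset, and each sample's 2 arrays were averaged. limma 3.58.1 in R 4.3.3 fitted pool and animal as fixed terms over 15 samples, with eBayes, two-sided tests and Benjamini-Hochberg adjustment over all probe sets (threshold 0.05). Errors of differences are standard errors and SDs are over animals. The brightest probe set stood for a gene. Each animal gave all 3 pools, per the labels, which number the animals as pairs, so animal was a block; samples of the same animal deviated together in 15 of 15 pairs, with correlations from 0.288 to 0.747. On simulated data the comparison of IML with the somatic mean recovered 98.1% of log2 changes of 1 (1000 changes, 5 runs, 12422 probe sets), and 6.12% of calls were false. That share was not worked out for the members. The median SE over all probe sets was 0.0634, and it was larger for Adcyap1 (0.19), Cck (0.23), Penk (0.25), Sst (0.30) and Tac1 (0.52).

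The members and gene lists were chosen with earlier results of these data known. Named genes were all members, up to 3 genes of each list with the smallest p in IML against the somatic mean, the 3 genes most like Adcyap1, Penk and Tac1, and Slc18a3, Isl1 and Nos1. Alternatives changed the block, the technical arrays, the scaling, the treatment of low values, the variance model, the groups in the model, the probe set rule and the threshold, added a covariate, or left out an animal. Leaving out the LMN sample of animal 2 or the IML sample of animal 1 was chosen after seeing the data.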

Additional observations from a re-analysis of the deposited data

Results flagged for a closer look

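In 3 of 27 groups of 5 animals, a single sample stood apart from the others by Dixon's test (critical value 0.71), which chance alone does in about 1 in 20 groups. Adcyap1 in LMN was highest in animal 4, at 9.11, with the next value at 7.21. Tac1 in MMN was highest in animal 2, at 7.70, with the next at 5.61. Cck in MMN was highest in animal 1, at 10.38, with the next at 8.85.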

How the results depend on the processing

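Adcyap1 kept its call against the somatic mean in 19 of 21 alternatives and Penk in 20 of 21, while Tac1 kept it in 9 of 20 and Gal in 6 of 21. Sst gained a call in 3 of 21 and Cck in 5 of 21. These tallies include the threshold of 0.10, whose outcome follows from the adjusted p of the main limma model. Under it every call is kept, and Sst (0.0897) and Cck (0.0831) gain one. Of 766 values of members under the alternatives, 677 kept sign and side of the threshold, 26 gained a call, 38 lost it and 25 turned sign, none of the last called in the main model. The number of genes called against the somatic mean (4) was 1 with no replicate block, 7 with all 30 arrays, 2 with a floor of 32, 2 with an offset of 32, 0 with the fibroblast covariate, 2 without the IML sample of animal 1 and 2 to 4 without each animal. Against LMN (2) it was 4 with a random block, 6 with all 30 arrays, 0 with the covariate, 4 at an adjusted p under 0.10 and 2 to 3 without each animal. Against MMN (1) it was 0 with no replicate block, 2 with a random block, 5 with all 30 arrays, 0 with the floor, 0 with the covariate and 0 to 2 without each animal. Between LMN and MMN it was 0 throughout. These numbers take calls in either direction. Cck, called lower in IML, is among the genes called with all 30 arrays in each comparison of IML, and without animal 2. Over all probe sets the counts ran from 0 to 1619 against the somatic mean (686 in the main model), 0 to 1840 against LMN (1116), 0 to 464 against MMN (43) and 0 to 241 between LMN and MMN (7). All 30 arrays count paired arrays of 1 RNA, and leaving out an animal leaves fewer samples. With the floor the differences that lost a call were as before and their SE was larger (Tac1 0.60 against 0.52). The cause was otherwise not tested.

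Values that turned sign were as follows (log2). Set 1 alone gave 0.031 for Pdyn in IML against MMN and -0.057 for Tac1 in LMN against MMN. Set 2 alone gave Vip -0.033 against the somatic mean, -0.056 against LMN and -0.0096 against MMN, and Gal -0.0051 in LMN against MMN. Tac1 in LMN against MMN was -0.0030 after quantile normalization and -0.024 with the offset. With the covariate Pdyn was 0.078 against the somatic mean, 0.083 against LMN, 0.074 against MMN and -0.0092 in LMN against MMN. In the same model Cck was 0.11 and Vip -0.061 in IML against LMN, and Npy was -0.20 and Gal -0.072 in LMN against MMN. Averaging probe sets gave Pdyn 0.035 against MMN, and leaving out the LMN sample of animal 2 gave Cck 0.014 in LMN against MMN. Without each animal in turn, LMN against MMN ran from -0.27 to 0.32 for Tac1 and from -0.027 to 0.071 for Npy. Vip ran from -8e-04 to 0.13 in IML against LMN, and Pdyn from -0.097 to 0.034 against the somatic mean and from -0.046 to 0.10 against MMN.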

Other observations

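Of 9 genes of peptide-degrading enzymes, some at the cell surface and some inside the cell, limma called 0 in IML against the somatic mean. Their median was -0.03, and 0 had an unadjusted p under 0.05, which 2574 of the 12422 probe sets passed. Thop1, which encodes thimet oligopeptidase, averaged 7.34 ± 0.15 in IML, 7.52 ± 0.13 in LMN and 7.39 ± 0.32 in MMN (SD, n = 5). Ece1, the endothelin-converting enzyme gene, differed by 0.08 ± 0.07 and the neurolysin gene Nln by -0.05 ± 0.05 (log2, SE).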
